A study of Mus musculus with 6 samples.

Results

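The proteasome subunit genes of the mouse heart were examined together with Nfe2l1 and Ddi2, which encode the transcription factor NRF1 and the protease that releases it. The set was fixed by gene name: 14 constitutive subunits of the 20S core, 17 subunits of the 19S cap, 4 assembly chaperones (Pomp, Psmd5, Psmd9 and Psmd10), Nfe2l1 and Ddi2. All 37 genes were found among the 26835 listed, each on a single row. All 37 were among the 10329 genes with a mean of at least 1 FPKM (fragments scaled to transcript length and to library size), which were tested. The hearts came from C57BL/6 mice aged 7 to 8 weeks and weighing 20 ± 2 g, with the genotype labelled "wide type", read here as wild type. In the CFZ_EA group mice received carfilzomib at 8 mg/kg by intraperitoneal injection and electroacupuncture (EA, current passed through needles) at the forelimb acupoint PC6. CFZ mice received carfilzomib at 8 mg/kg alone, and Control mice received 10% DMSO by the same route. Each group had 2 libraries, and the labels list days 0, 2, 4 and 6 for all of them without tying a day to an event. No group given electroacupuncture without carfilzomib was analysed here. Neither the region of the heart nor the origin of replicates in different animals is stated, and p-values therefore reflect the spread of these libraries alone, which may be technical.

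The proteasome is the protease that degrades ubiquitin-tagged proteins. Its 20S core is a barrel of alpha and beta rings with the active sites on the inside of the beta rings, and the 19S cap binds, unfolds and feeds in the substrate. Carfilzomib binds irreversibly to the chymotrypsin-like site carried by Psmb5. When the proteasome is inhibited in cultured cells, NRF1, which is otherwise degraded at the endoplasmic reticulum, is cut by DDI2, enters the nucleus and raises transcription of proteasome subunit genes. NRF1 binds, with a small MAF partner, at antioxidant response elements, for which the letters TGACNNNGC and TGAGNNNGC were searched on both strands. In the heart muscle cell the proteasome takes part in the turnover of sarcomere proteins.

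RefSeq promoters (GRCm38.p6, from 250 bases before to 50 after each start) were at hand for 31 of the 37 genes, with 37 promoters in all. TGACNNNGC or TGAGNNNGC was present in 19 of these 37 promoters (51.4%), against 27.8% of 32851 promoters of all genes. By gene the counts were 15 of 31 (48.4%), against 30.8% of 27025 genes. The form TGACNNNGC was in 13.5% of the members' promoters against 12.4% of all promoters, the form TGAGNNNGC in 43.2% against 17.6%, and CCAAT, the letters bound by NF-Y, in 40.5% against 37.4%. Promoters of 1 gene can overlap and then count the same letters again, as 3 promoters of Nfe2l1 do. The whole promoter of Psmb5 is shown because its product is the drug's target; the shorter stretches, of 69 bases, show the match in 2 more catalytic or structural core genes, in 2 assembly chaperones, in a 19S lid gene and in Nfe2l1 itself. The Nfe2l1 stretch is from the promoter of an alternative start, and no match was found at the start of the gene model in the table. The Psmd9 and Psmd5 stretches also lie away from the starts of their gene models, at 123169413 for Psmd9 and 34874968 for Psmd5 (minus strand). Capitals mark the matched letters, on either strand, and each run is written 5′ to 3′ on the strand of its gene, with positions counted from the RefSeq start.
Psmb5 (chr14:54617946-54618245, minus strand, match starting at -47): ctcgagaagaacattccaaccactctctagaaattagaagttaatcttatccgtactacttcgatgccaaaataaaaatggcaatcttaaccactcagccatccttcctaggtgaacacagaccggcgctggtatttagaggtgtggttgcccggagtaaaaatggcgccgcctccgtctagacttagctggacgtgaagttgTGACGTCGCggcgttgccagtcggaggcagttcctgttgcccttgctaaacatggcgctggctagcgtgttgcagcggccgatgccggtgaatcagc
Psmb6 (chr11:70525318-70525386, plus strand, match starting at -9): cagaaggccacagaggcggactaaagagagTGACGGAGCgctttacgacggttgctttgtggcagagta
Psmb3 (chr11:97703394-97703462, plus strand, match starting at -10): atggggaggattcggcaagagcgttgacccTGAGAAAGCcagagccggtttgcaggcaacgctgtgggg
Psmd9 (chr5:123228129-123228197, plus strand, match starting at -31): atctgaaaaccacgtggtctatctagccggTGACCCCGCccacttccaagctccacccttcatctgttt
Psmd5 (chr2:34871077-34871145, minus strand, match starting at -153): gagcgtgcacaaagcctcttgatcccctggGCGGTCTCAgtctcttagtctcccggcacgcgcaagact
Psmd12 (chr11:107479470-107479538, plus strand, match starting at -28): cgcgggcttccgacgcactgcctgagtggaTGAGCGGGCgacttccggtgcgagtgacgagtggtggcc
Nfe2l1 (chr11:96830109-96830177, minus strand, match starting at -179): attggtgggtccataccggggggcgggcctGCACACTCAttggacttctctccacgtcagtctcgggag
The promoters of Psmb5 and Psmb6 held the form TGACNNNGC, as did that of Psmd9, within 47 bases of the start, and the other stretches shown here held TGAGNNNGC.

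Library depth was 50013990 to 75742448 estimated counts, so that 3 counts equalled 0.0396 to 0.0600 CPM (counts scaled to library size). All 8 ventricular and general cardiomyocyte markers were present, with summed levels of 25429 and 23256 FPKM in CFZ_EA, 25461 and 26492 FPKM in CFZ, and 23204 and 21977 FPKM in Control. Erythroid markers summed to 2466 and 3470 FPKM in CFZ_EA, 2654 and 3316 FPKM in CFZ, and 4962 and 5666 FPKM in Control. All 9 fibroblast markers and all 8 macrophage markers were also above 1 FPKM on average, and their sums were 1049 and 849 FPKM in Control replicate 2, against 127 to 204 and 220 to 292 FPKM in the other libraries. Atrial markers (9 of 10 above 1 FPKM) summed to 1001 and 5751 FPKM in the CFZ_EA libraries, 237 to 367 FPKM in CFZ, and 1644 to 2889 FPKM in Control. Endothelial markers summed to 235 and 238 FPKM in CFZ_EA, 284 and 316 FPKM in CFZ, and 282 and 281 FPKM in Control. Epicardial and mesothelial markers (4 of 6 above 1 FPKM) summed to 4.31 and 11.3 FPKM in CFZ_EA and 3.92 and 3.67 FPKM in CFZ. In Control they summed to 18.8 and 45.5 FPKM. Markers of T, B and natural killer cells were near 0, at 1.41 to 2.18 FPKM in sum. In whole tissue, fewer cells of a type and less RNA per cell cannot be told apart. Psma2, Psmb5, Psmc5, Psmd1, Psmd12, Psmd13, Psmd14 and Ddi2 share bases and strand with a further gene model, and 11 members share bases with a model on the other strand, so that their counts may hold reads of both.

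Proteasome messenger RNA was abundant in these hearts, with core subunits above cap subunits at the median, and the assembly chaperones and Ddi2 below most subunits. Per length, the median 20S subunit had 39.9 FPKM over the 6 libraries, a level above 91.2% of tested genes, and the median 19S subunit had 25.5 FPKM, above 87.0%. The mean level per 20S subunit was 1.66 to 1.68 times that per 19S subunit in CFZ_EA, 1.71 to 1.75 times in CFZ and 1.67 times in both Control libraries. Core subunits occur in equal number in the complex, yet their levels in FPKM, which depend on the transcript length used, spanned a 19.4-fold range. Psma3, an alpha subunit, had the lowest at 6.80 FPKM, and Psmb5 (chromosome 14, 54614119 to 54618022, minus strand, GRCm38) the highest at 132 FPKM. CPM is not scaled to length, and there Psmb4 lay above Psmb5 in all 6 libraries. In Control, Psmb4 had 168 and 172 CPM, Psmb5 128 and 126 CPM, and Psma3 30.4 and 27.0 CPM. Among cap genes Psmd11, a lid subunit, was lowest at 6.59 FPKM and Psmc3, one of the ring of ATPases that unfold the substrate, highest at 73.5 FPKM. Pomp, the chaperone that completes the 20S core, had 10.8 FPKM. Psmd5, a chaperone of the 19S base, had 2.05 FPKM and Ddi2 had 2.25 FPKM, the lowest levels of the set, while Nfe2l1 (chromosome 11, 96817414 to 96829502, minus strand) had 15.2 FPKM. The plot of FPKM by gene shows that these differences between genes were far wider than those between groups.

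**Figure D1:**
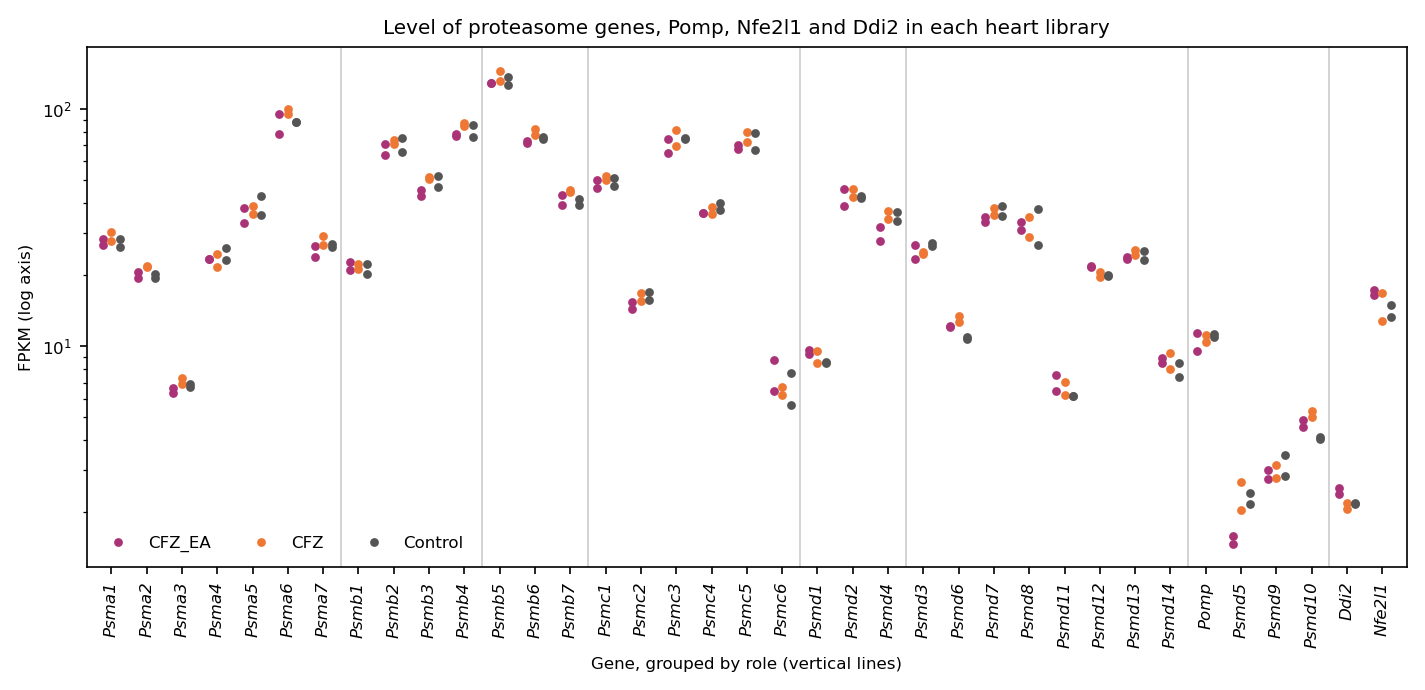
Level of each of the 37 genes in FPKM on a log axis, 1 point per library, coloured by group (2 libraries each), with genes grouped by role. Psmb5 stands highest, between 126 and 145 FPKM in all 6 libraries, and the CFZ_EA points of Psmd5 (1.47 and 1.58 FPKM) lie below its 4 other points.

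On the CPM scale, most members were highest in a single CFZ library. CFZ replicate 2 held the highest value of 21 of the 37 genes on that scale (scaled here with TMM factors, which correct for library composition). In FPKM most members were highest in another library, such as Psma6 with 99.5 FPKM in CFZ replicate 1, against 94.8 FPKM in CFZ replicate 2. Control replicate 2 held the lowest value of 17 genes and CFZ_EA replicate 2 of 10. The median deviation of log2 CPM from the 6-library mean was 0.022 and -0.019 in the CFZ_EA libraries. It was 0.0018 and 0.13 in CFZ, and -0.020 and -0.095 in Control. CFZ replicate 1 thus lay near the middle of the 6, between the CFZ_EA libraries. Replicates differed by a median absolute log2 ratio of 0.069 in CFZ_EA, 0.15 in CFZ and 0.11 in Control. For all tested genes it was larger, at 0.16, 0.19 and 0.24 in the same groups. The median member had 25.5 FPKM, above 87.0% of tested genes, and no set of genes of like level was compared. Psmc6, an ATPase subunit, varied most between replicates in Control (0.59) and in CFZ_EA (0.46), and Psmd8, a lid subunit, in CFZ (0.38). Control replicate 2, low in CPM for most subunits, is also the library with the high fibroblast and macrophage markers. In summed FPKM it lay above Control replicate 1, with 720 against 681 FPKM for the 20S and 525 against 495 FPKM for the 19S. Its TMM factor was the highest of the 6, at 1.08. The part of those cells in the low CPM values was not tested.

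**Figure D2:**
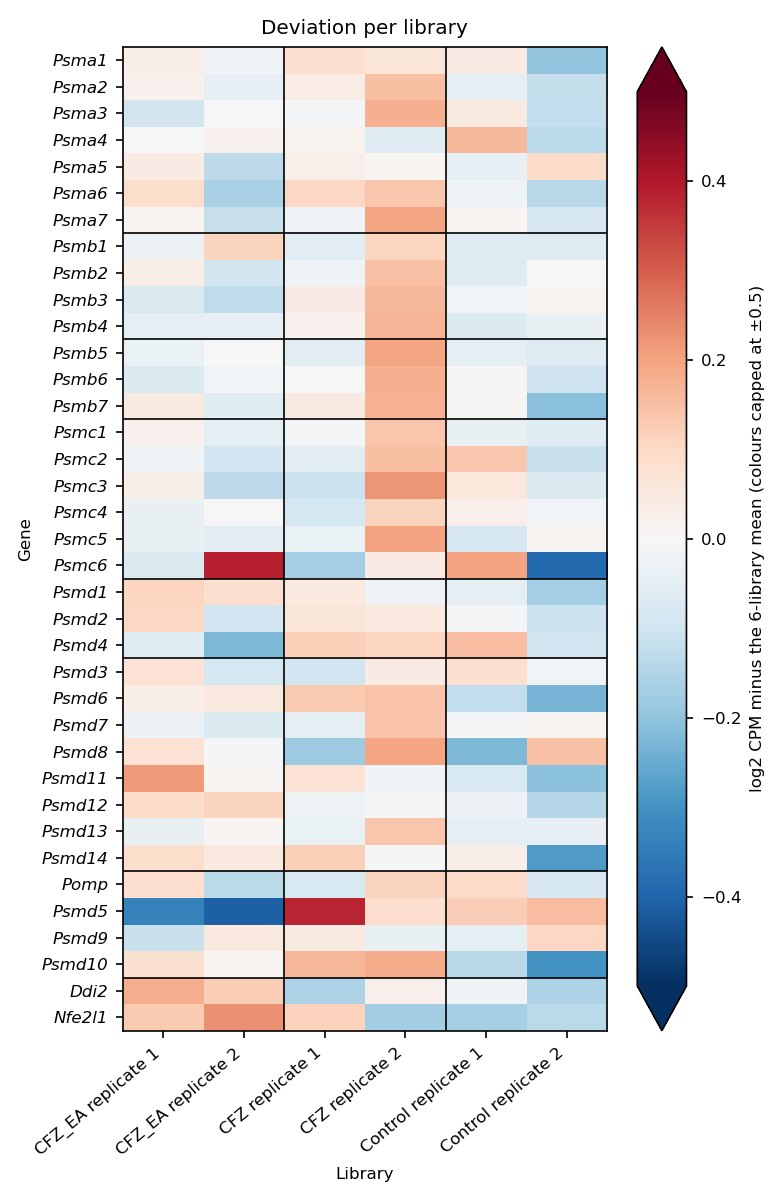
Deviation of log2 CPM from the mean of the 6 libraries for each gene (rows, grouped by role) and library (columns), where red is above and blue below the mean. The CFZ replicate 2 column is red for 30 of 37 genes, while in the Control replicate 2 column 7 of 37 genes are above the mean.

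The first comparison asked how carfilzomib alters expression in the heart. In CFZ hearts the fitted level of most subunits was slightly above Control, and no member passed the test. For Psmb5, the drug's target, the groups overlapped. With Benjamini-Hochberg adjustment over all tested genes, edgeR's quasi-likelihood test called 0 of 37 members higher and 0 lower, against 0% and 0.029% of all genes. At an unadjusted p under 0.05 it gave 1 member higher and 0 lower, against 1.82% and 5.9% of all genes, and DESeq2 called 0 members, against 0.261% of genes higher and 1.07% lower. The log2 fold change (CFZ over Control) was above 0 for 33 of 37 members (89.2%), against 49.5% of all genes. The median was 0.10, against -0.0034 over all genes. With scaling by library totals only, 26 of 37 were above 0 and the median was 0.041, against -0.066 over all genes. Members whose CFZ libraries both lay above both Control libraries in CPM numbered 15 (40.5%, against 18.4% of all genes), and 0 lay below, against 18.7%. The 15 were the alpha genes Psma1, Psma2 and Psma6, the beta genes Psmb1, Psmb3, Psmb4 and Psmb7, the ATPase Psmc1, the base scaffolds Psmd1 and Psmd2, the lid genes Psmd6, Psmd11, Psmd12 and Psmd13, and Psmd10. In FPKM only Psma2, Psma6, Psmb7, Psmd6, Psmd10 and Psmd11 of these stayed apart. The others overlapped, as Psmb4 did with 84.5 and 87.2 FPKM in CFZ, against 76.2 and 85.3 FPKM in Control. Outside the list, Psma3 and Psmb6 lay above and Psmd3 below without overlap in FPKM. Without CFZ replicate 2, which had the highest CPM of most members, the median was 0.024 with 26 of 37 above 0. Cell type markers moved in the same comparison. All 8 ventricular and general cardiomyocyte markers were higher in CFZ than in Control (median log2 fold change 0.26), while 0 of 5 erythroid markers (median -0.77), 0 of 9 fibroblast, 0 of 8 macrophage and 0 of 9 atrial markers were higher. Of epicardial and mesothelial markers 0 of 4 were higher (median -3.55), and of smooth muscle and pericyte markers 1 of 6 (median -0.26). Of endothelial markers 6 of 7 were higher (median 0.077). The part of these cell types in the members' values was not tested.

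The catalytic subunits had similar small differences. Psmb5 measured 127 and 151 CPM in CFZ, against 128 and 126 CPM in Control. The groups overlapped in Psmb5, since CFZ replicate 1 lay between the Control libraries. Its level was 138 ± 10.0 FPKM in CFZ and 131 ± 7.24 FPKM in Control (SD, n = 2 each), and the log2 fold change was 0.13 ± 0.12 (SE, edgeR adjusted p = 0.790). It was 0.0039 without CFZ replicate 2 and 0.25 without CFZ replicate 1. The 95% confidence interval of that change ran from 0.893-fold to 1.35-fold. Psmb6, which carries the caspase-like activity (chromosome 11, 70525367 to 70527858), had 158 and 178 CPM in CFZ, against 158 and 146 CPM in Control. Psmb7, with the trypsin-like activity (chromosome 2, 38588036 to 38644087), had 166 and 181 CPM in CFZ, against 161 and 139 CPM in Control. Only here did the groups of a catalytic gene not overlap in CPM, while those of Psmb6 also lay apart in FPKM. The log2 fold changes of Psmb6 and Psmb7 were 0.14 ± 0.12 and 0.21 ± 0.13, with intervals up to 1.34-fold and 1.43-fold (edgeR adjusted p = 0.770 and 0.707). For Psmb6 the value was 0.049 without CFZ replicate 2 and 0.23 without CFZ replicate 1, and leaving out Control replicate 2 gave 0.10 for Psmb7 while leaving out Control replicate 1 gave 0.33. A gene of the Psmb7 locus on the other strand, Nek6, overlaps it, and the sources used here do not state whether counting used strand.

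The other roles stood as follows. Of the 7 alpha ring genes 5 were higher, with a median log2 fold change of 0.13. Psma2 had 85.3 and 92.3 CPM in CFZ, against 80.3 and 76.4 CPM in Control, the third smallest unadjusted p of the set (log2 fold change 0.18 ± 0.11, edgeR adjusted p = 0.704); the gene model AW209491 overlaps it on the same strand, so part of its count is uncertain. Psma4 had 62.5 and 59.0 CPM in CFZ, against 69.0 and 56.3 CPM in Control, and its log2 fold change of -0.044 ± 0.13 was 0.11 without Control replicate 1. All 4 structural beta genes, all 6 ATPases and all 3 genes of the base scaffold and ubiquitin receptors were above 0, with medians of 0.10, 0.053 and 0.11. Among the 8 lid genes 7 were above 0, with a median of 0.083.

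Psmd6, a lid subunit (chromosome 14, 14112174 to 14120984, minus strand), had the smallest unadjusted p of the set. It measured 40.6 and 41.0 CPM in CFZ, against 34.0 and 31.6 CPM in Control, so that the groups lay apart by more than the spread within either. The log2 fold change was 0.31 ± 0.11 with an interval from 1.03-fold to 1.51-fold (edgeR adjusted p = 0.610). Psmd10, a chaperone of the 19S base also known as gankyrin (chromosome X, 140948429 to 140956728), measured 8.49 and 8.62 CPM in CFZ, against 6.87 and 6.16 CPM in Control. Its log2 fold change of 0.39 ± 0.17 was the largest of the set (edgeR adjusted p = 0.651). Psmd3, a lid subunit, went the other way with 131 and 144 CPM in CFZ, against 149 and 139 CPM in Control. The groups overlapped in CPM, and the change of -0.062 ± 0.12 was 0.0038 without CFZ replicate 1. Psmd9, a further chaperone of the 19S base, had 24.8 and 23.4 CPM in CFZ, against 23.2 and 25.9 CPM in Control (-0.025 ± 0.14, which turned to 0.050 on leaving out Control replicate 2 and to 0.016 on leaving out CFZ replicate 2).

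Pomp, Nfe2l1 and Ddi2 overlapped between CFZ and Control. Pomp had 59.0 and 67.1 CPM in CFZ, against 66.5 and 58.8 CPM in Control, and its log2 fold change of 0.010 ± 0.14 turned to -0.080 with Control replicate 2 left out and to -0.086 with CFZ replicate 2 left out. Nfe2l1 had 99.0 and 80.9 CPM in CFZ, against 81.3 and 83.2 CPM in Control. Only CFZ replicate 1 was high for Nfe2l1, and the change of 0.13 ± 0.13 (edgeR adjusted p = 0.810) was -0.023 without that library and 0.27 without CFZ replicate 2. Ddi2 had 21.3 and 24.2 CPM in CFZ, against 23.5 and 21.4 CPM in Control, with a log2 fold change of 0.024 ± 0.14 that turned to -0.045 on leaving out Control replicate 2 and to -0.071 on leaving out CFZ replicate 2. The Ddi2 model shares its strand with the overlapping model Rsc1a1, which had 434 to 689 estimated counts per library, so the level of Ddi2 is uncertain.

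The precision of the design bounds these differences. The median 95% confidence interval of a member reached 0.30 to either side on the log2 scale. In CFZ over Control the highest upper bound of the 37 intervals, taken gene by gene, was 1.76-fold for Psmd10, and 34 upper bounds lay under 1.5-fold. The lowest lower bound was 0.653-fold, for Psmc6. With Control replicate 2 left out, 29 members were above 0 and the median was 0.081.

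**Figure D3:**
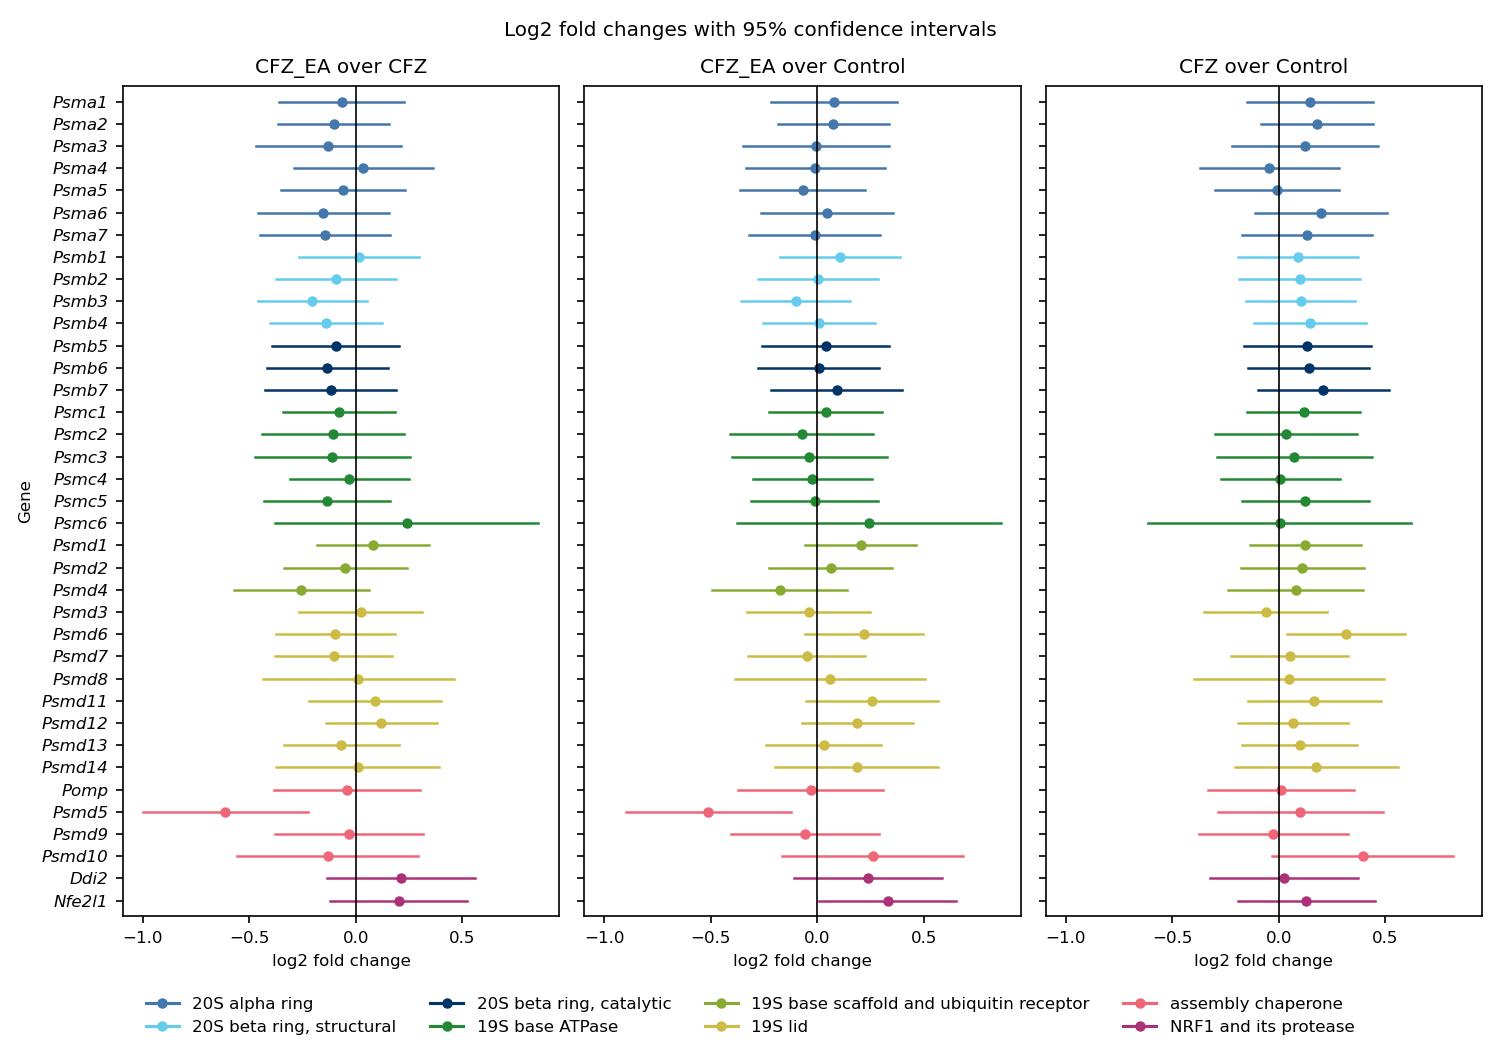
Log2 fold change of each gene (points) with its 95% confidence interval (bars) in 3 comparisons that share libraries, from 1 edgeR fit to all 6 libraries, coloured by role. In CFZ over Control 33 of 37 points lie right of 0 (26 with scaling by library totals only) and 1 interval, that of Psmd6, excludes 0. In CFZ_EA over CFZ 26 points lie left of 0, and Psmd5 lies farthest out in both CFZ_EA panels.

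The second comparison asked how electroacupuncture alters expression in carfilzomib-treated hearts. In CFZ_EA hearts most subunits were slightly below CFZ, Psmd5 was the lowest relative to CFZ, and the fitted levels of Nfe2l1 and Ddi2 were above CFZ. edgeR called 0 of 37 members higher and 0 lower, against 0.0194% and 0% of all genes. At an unadjusted p under 0.05 it gave 0 members higher and 1 lower, against 2.01% and 1.07% of all genes, and DESeq2 called 0 members, against 0.368% and 0.165%. The log2 fold change (CFZ_EA over CFZ) was above 0 for 11 of 37 members (29.7%, against 48.1% of all genes), with a median of -0.078 against -0.0084. In CPM 4 members were higher in both CFZ_EA libraries than in both CFZ libraries (10.8%, against 16.7% of all genes), and 11 were lower (29.7%, against 16.7%). The lower ones were Psma1, Psma2, Psma6, Psmb3, Psmb4, Psmb6, Psmc5, Psmd4, Psmd5, Psmd6 and Psmd10, and the higher ones Psmd1, Psmd12, Nfe2l1 and Ddi2. In FPKM the groups of Psma1, Psma6, Psmd1 and Nfe2l1 overlapped, while those of further members, among them Psmb5 and Psmb7, did not. Interval bounds reached from 0.5001-fold for Psmd5 to 1.81-fold for Psmc6. This comparison shares its CFZ libraries with the previous one, and CFZ replicate 2, the library with the highest CPM of most members, bears on both. Without it the median was -0.0043 with 16 of 37 above 0. Without CFZ replicate 1 the median was -0.15, and without CFZ_EA replicate 2, the library with the high atrial markers, it was -0.049. Of the endothelial markers 0 of 7 were higher in CFZ_EA than in CFZ (median log2 fold change -0.16), while 9 of 9 fibroblast markers (median 0.41) and 9 of 9 atrial markers (median 3.97) were higher. So were 4 of 4 epicardial and mesothelial markers (median 1.42). The part of these cell types in the members' values was not tested.

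Psmd5 (chromosome 2, 34849734 to 34874968, minus strand) had the largest difference of any member. It measured 12.8 and 12.2 CPM in CFZ_EA, against 20.99 and 17.1 CPM in CFZ. Both CFZ_EA libraries were below all 4 others, since the Control libraries had 17.6 and 18.0 CPM. Its level was 1.52 ± 0.0769 FPKM in CFZ_EA and 2.36 ± 0.452 FPKM in CFZ (SD, n = 2 each). The log2 fold change was -0.61 ± 0.16 with an interval from 0.5001-fold to 0.856-fold. By unadjusted p the gene ranked 66 among 10329, and the edgeR adjusted p was 0.9997. Under DESeq2 the adjusted p was 0.119. The change stayed between -0.75 and -0.46 with 1 library left out, and it was -0.57 without Control replicate 2 and CFZ_EA replicate 2 together, the libraries that stand apart on markers. The gene model Cutal overlaps Psmd5 on the other strand.

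Other members differed less. Psmd4, a ubiquitin receptor of the 19S base, measured 99.8 and 89.2 CPM in CFZ_EA, against 113 and 112 CPM in CFZ. Its groups did not overlap, and the log2 fold change was -0.26 ± 0.13 with an interval from 0.673-fold to 1.04-fold (edgeR adjusted p = 0.9997). Psmb3, a structural beta subunit, measured 116 and 112 CPM in CFZ_EA, against 126 and 137 CPM in CFZ (-0.20 ± 0.10). On the higher side stood Psmd12, a lid subunit, with 64.1 and 65.0 CPM in CFZ_EA, against 59.0 and 59.8 CPM in CFZ (0.12 ± 0.11). By role, 1 of 7 alpha, 1 of 4 structural beta, 0 of 3 catalytic, 1 of 6 ATPase and 5 of 8 lid genes were above 0.

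The fitted changes of the catalytic subunits were all below 0. Psmb5 measured 129 and 132 CPM in CFZ_EA, against 127 and 151 CPM in CFZ, and the CFZ libraries enclosed both CFZ_EA libraries. Its log2 fold change of -0.095 ± 0.12, with an interval from 0.762-fold to 1.1502-fold, was 0.039 without CFZ replicate 2. Psmb6 measured 150 and 156 CPM in CFZ_EA, against 158 and 178 CPM in CFZ (-0.13 ± 0.12), and Psmb7 166 and 154 CPM, against 166 and 181 CPM in CFZ (-0.12 ± 0.13). Without CFZ replicate 2 the changes of Psmb6 and Psmb7 were -0.038 and -0.047, and without CFZ replicate 1 they were -0.22 and -0.18. Pomp had 65.99 and 56.6 CPM in CFZ_EA, against 59.0 and 67.1 CPM in CFZ, and its change of -0.042 ± 0.14 was 0.058 without CFZ replicate 2 and 0.066 without CFZ_EA replicate 2.

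Nfe2l1 and Ddi2 were among the 4 members whose CFZ_EA libraries both lay above both CFZ libraries in CPM. Nfe2l1 measured 100.04 and 107 CPM in CFZ_EA, against 99.0 and 80.9 CPM in CFZ. CFZ_EA replicate 1 exceeded CFZ replicate 1 by little, so the gap rests on CFZ replicate 2: the log2 fold change of 0.20 ± 0.13 (edgeR adjusted p = 0.9997) was 0.068 without it and 0.35 without CFZ replicate 1. In FPKM the groups overlapped, with 16.5 and 17.2 FPKM in CFZ_EA, against 16.8 and 12.8 FPKM in CFZ. Ddi2 measured 26.9 and 25.9 CPM in CFZ_EA, against 21.3 and 24.2 CPM in CFZ (0.21 ± 0.14, which was 0.12 without CFZ replicate 1 and 0.31 without CFZ replicate 2). The overlapping Rsc1a1 had 689 and 645 estimated counts in CFZ_EA, against 492 and 604 in CFZ, and its part in the Ddi2 values was not tested.

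**Figure D4:**
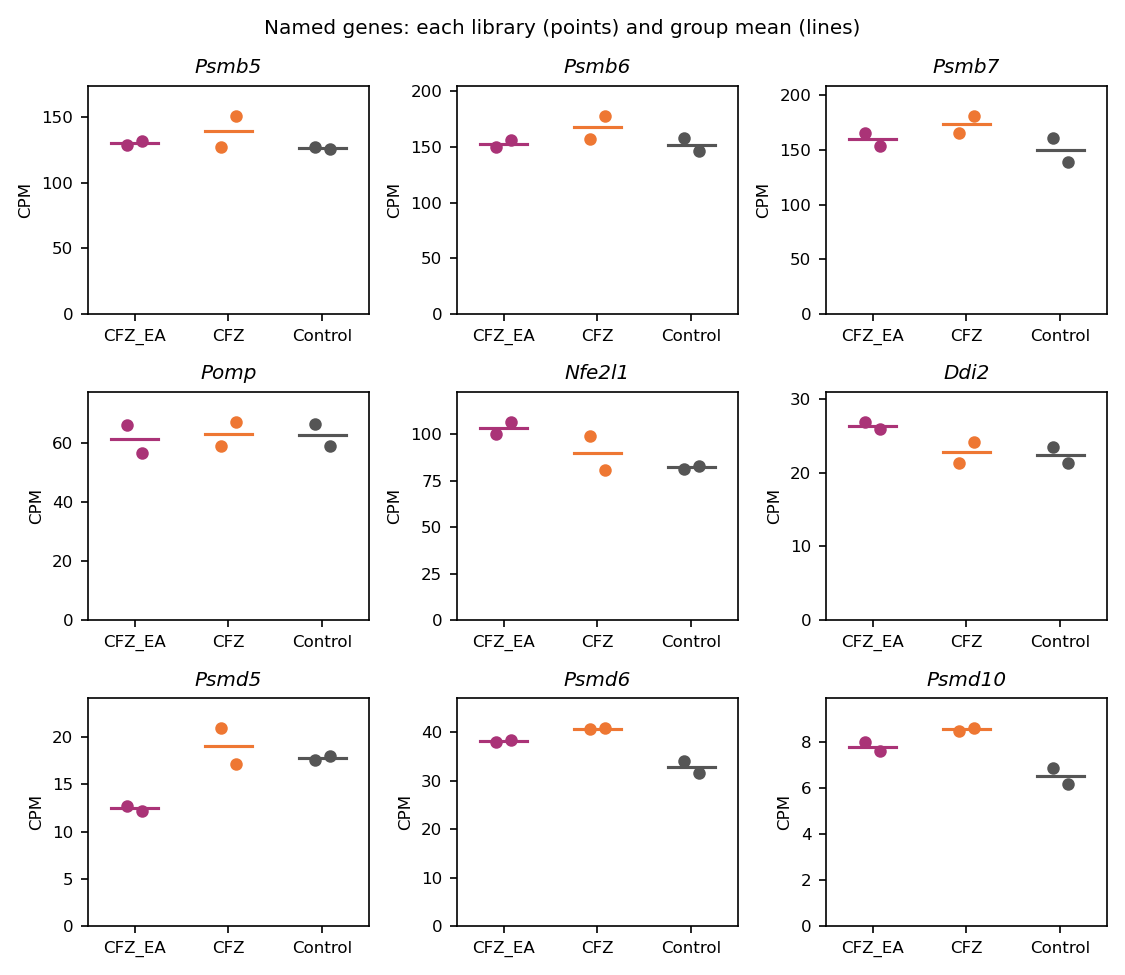
CPM of 9 genes in each library (points) with the group mean (lines), from left to right CFZ_EA, CFZ and Control, on axes that start at 0. The CFZ_EA points of Psmd5 (12.2 and 12.8 CPM) lie below all others, those of Nfe2l1 and Ddi2 lie above all others, and Psmd6 and Psmd10 are lowest in the Control libraries.

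The third comparison, CFZ_EA against Control, shares libraries with the other 2. Nfe2l1 had the highest fitted change and Psmd5 the lowest, the median of all members was near 0, and no member passed the test. edgeR called 0 of 37 members in either direction, against 0% and 0% of all genes. At an unadjusted p under 0.05 it gave 1 higher and 1 lower, against 1.47% and 3.66% of all genes, and DESeq2 called 0 members, against 0.252% in each direction. The log2 fold change (CFZ_EA over Control) was above 0 for 22 of 37 members (59.5%, against 49.7% of all genes), with a median of 0.031 against -0.0013. In CPM 12 members were higher without overlap (32.4%, against 16.6%), and 3 were lower (8.11%, against 17.8%). The higher ones were Psma2, Psmb1, Psmb5, Psmd1, Psmd6, Psmd10, Psmd11, Psmd12, Psmd13, Psmd14, Nfe2l1 and Ddi2, and the lower ones Psmb3, Psmd5 and Psmd7. In FPKM the groups of Psma2, Psmb1, Psmb5, Psmd13 and Psmd14 overlapped. Mean FPKM in CFZ_EA was below Control for Psmb5 (128 against 131) and Psmd13 (23.5 against 24.1). Psma3, Psmb6, Psmc2, Psmc3, Psmc4 and Psmd4 were also lower without overlap in FPKM. Leaving out Control replicate 1 gave a median of 0.068, and leaving out Control replicate 2 gave 0.012. Scaled by library totals only it was -0.041 with 13 members above 0, and the median of all genes was then -0.073. All 8 ventricular and general cardiomyocyte markers were higher in CFZ_EA than in Control (median log2 fold change 0.17). So were 9 of 9 atrial markers (median 0.47). Higher were 0 of 5 erythroid (median -0.77), 0 of 9 fibroblast (-0.84), 0 of 8 macrophage (-1.06) and 0 of 4 epicardial and mesothelial markers (-2.44). Of endothelial markers 1 of 7 was higher, and of smooth muscle and pericyte markers 2 of 6. The part of these cell types in the members' values was not tested.

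Nfe2l1 measured 100.04 and 107 CPM in CFZ_EA, against 81.3 and 83.2 CPM in Control, and Ddi2 26.9 and 25.9 CPM, against 23.5 and 21.4 CPM. In neither gene did the groups overlap. Nfe2l1 had 16.8 ± 0.509 FPKM in CFZ_EA and 14.02 ± 1.13 FPKM in Control (SD, n = 2 each), and its log2 fold change of 0.33 ± 0.13 spanned 1.01-fold to 1.57-fold (edgeR adjusted p = 0.848). With 1 library left out the Nfe2l1 value ran from 0.28 to 0.39. Ddi2 had 0.24 ± 0.14. Psmd5 measured 12.8 and 12.2 CPM in CFZ_EA, against 17.6 and 18.0 CPM in Control (-0.51 ± 0.16, edgeR adjusted p = 0.848).

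Among lid subunits, Psmd11 measured 54.0 and 47.1 CPM in CFZ_EA, against 44.2 and 40.4 CPM in Control (0.26 ± 0.13), and Psmd6 measured 38.0 and 38.4 CPM, against 34.0 and 31.6 CPM (0.22 ± 0.11). For Psmd11 the value was 0.16 without CFZ_EA replicate 1. Psmd4 measured 99.8 and 89.2 CPM in CFZ_EA, against 116 and 97.6 CPM in Control (-0.18 ± 0.13, and -0.037 without Control replicate 1), and Psmb3 116 and 112 CPM, against 121 and 124 CPM (-0.10 ± 0.10). The catalytic genes had log2 fold changes of 0.039 ± 0.12 for Psmb5, 0.0075 ± 0.12 for Psmb6 and 0.090 ± 0.13 for Psmb7, and the interval of Psmb5 ran from 0.836-fold to 1.26-fold. Psmb5 and Psmb6 were below 0, at -0.032 and -0.062, when libraries were scaled by their totals only. Psmb6 and Psmb7 were at -0.050 and -0.017 without Control replicate 2. Pomp had -0.032 ± 0.14, and 0.075 without CFZ_EA replicate 2.

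The changes were also set out by the antioxidant response element letters in a promoter. In CFZ over Control the median log2 fold change was 0.10 over the 15 genes with a match and 0.12 over the 16 without, and 12 and 16 of them were above 0. In CFZ_EA over CFZ the medians were -0.068 and -0.073, with 5 and 4 genes above 0. In CFZ_EA over Control they were 0.0075 with a match and 0.061 without, with 8 and 11 genes above 0. These are descriptions of windows of 300 bases, with no test.

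Genes that act around the proteasome and NRF1 gave no call either. The lists covered immunoproteasome subunits, activators, further assembly chaperones, proteasome-bound enzymes and receptors, ubiquitin shuttles, ubiquitin genes and E1 enzymes, the retrotranslocation of NRF1, and its partners and turnover. The table held 59 such genes, of which 53 were tested, and edgeR called 0 in either direction in each comparison, as DESeq2 did. Above 0 were 33 of 53 in CFZ over Control (median 0.036), 25 in CFZ_EA over CFZ (median -0.0085) and 31 in CFZ_EA over Control (median 0.024), where the shares over all genes are those given above. At an unadjusted p under 0.05 stood 1 gene, Syvn1, in both comparisons with Control and 0 in CFZ_EA over CFZ. Syvn1 encodes the HRD1 ubiquitin ligase of the endoplasmic reticulum that marks NRF1 for degradation. Syvn1 measured 4.75 and 4.53 FPKM in CFZ_EA, 4.84 and 4.56 FPKM in CFZ, and 6.94 and 6.52 FPKM in Control. All 4 carfilzomib libraries lay below both Control libraries, with log2 fold changes of -0.47 ± 0.13 in both CFZ_EA and CFZ over Control (edgeR adjusted p = 0.848 and 0.608).

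The next smallest unadjusted p in CFZ over Control was that of Ogt, whose product attaches N-acetylglucosamine to proteins and stabilises NRF1, with 4.42 ± 1.07 FPKM in CFZ and 6.38 ± 0.640 FPKM in Control (SD, n = 2 each; log2 fold change -0.49 ± 0.23). In CFZ_EA over CFZ they were Keap1, the adaptor for degradation of the related factor NRF2 (0.25 ± 0.12), and Ubxn4, a membrane adaptor for the VCP segregase (0.35 ± 0.17). In CFZ_EA over Control Maff, a small MAF partner, followed Syvn1 with 0.49 ± 0.23. Nfe2l2, which encodes NRF2, measured 10.1 ± 0.793 FPKM in CFZ_EA, 10.3 ± 1.004 FPKM in CFZ and 10.6 ± 0.331 FPKM in Control (SD, n = 2 each). Nfe2l3, the closest relative of Nfe2l1, was under the filter.

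The inducible catalytic subunits of the immunoproteasome replace Psmb5, Psmb6 and Psmb7 in assembling particles. Psmb10 amounted to 53.0% and 56.4% of its constitutive counterpart Psmb7 in FPKM in CFZ_EA, 48.8% and 55.4% in CFZ, and 69.9% and 73.5% in Control, so that all 4 carfilzomib libraries lay below both Control libraries. For Psmb8 over Psmb5 the gap was narrow, with 4.52% and 3.37% in CFZ_EA, 3.25% and 3.70% in CFZ, and 4.55% and 5.67% in Control. It was also narrow for Psmb9 over Psmb6, with 4.51% and 3.65%, 2.38% and 3.49%, and 5.05% and 4.57% in the same groups. In CFZ over Control the log2 fold changes were -0.41 ± 0.23 for Psmb8, -0.56 ± 0.27 for Psmb9 and -0.25 ± 0.14 for Psmb10, and none passed. Macrophages express these genes, and the summed macrophage markers given above were highest in the Control libraries, at 292 and 849 FPKM. Psmb10 itself measured 29.2 and 28.9 FPKM in those Control libraries. The part of macrophages in these ratios was not tested.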

How the data were processed

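Messenger RNA of 6 heart libraries was measured in pairs of 150 base reads. Tools listed in the submitters' processing notes, without roles, are StringTie 1.3.4d, HISAT2 2.0.4 and cutadapt 1.9, with the build GRCm38. Library synthesis marked strand with dUTP, per the labels' protocols; its use in counting, the annotation release and any filters were not given in the sources used here. FPKM and count columns stand side by side in the deposited table, per the file headers. The counts, whole numbers, were treated as the authors' estimated counts, since 42.2% to 43.3% of counts from 1 to 20 were multiples of 4 (25% by chance). Positions are from that table, and 32 of 37 members have the same start and end in GENCODE M21; 8 overlap another model on the same strand and 11 on the other.

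Counts of the 10329 genes averaging 1 FPKM or more were scaled with TMM factors and fitted with edgeR 4.0.16 (glmQLFit, group as the only term, 6 libraries, 3 residual degrees of freedom), with Benjamini-Hochberg adjustment over all of them and calls at an adjusted p under 0.05. SE and 95% confidence intervals are Wald values from that fit, and floors and intervals cover counting error and library spread only. An exact two-sided test of 2 against 2 cannot go below p = 0.333 and was not used. limma 3.58.1 on log2(FPKM + 1) and log2(FPKM + 0.1), DESeq2 1.42.0, other scalings, no filter, a block for the replicate number and fits lacking a library were alternatives. R 4.3.3 and Python 3.11.15 were used. The steps were tested on simulated data with changes larger than any fitted for a member, so that test does not cover changes of the members' size. Genes given in every library are Psmb5, Psmb6, Psmb7, Pomp, Nfe2l1, Ddi2 and, per comparison, the 3 with the smallest unadjusted p in each direction. Of the surrounding lists, the 2 genes with the smallest p per comparison are named. Psmc6, Psmd8, Nfe2l2 and the immunoproteasome genes were named after their values were seen. Members and lists were chosen with earlier results of these data known.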

Additional observations from a re-analysis of the deposited data

How the results depend on the processing

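No member was called in any comparison under any of the 16 alternatives, 2 of which (leaving out Control replicate 2 and CFZ_EA replicate 2 together, and counts divided by 4) were chosen after seeing the data. The counts of genes called over all genes did move, and the cause was not tested. In CFZ over Control, 0 higher and 3 lower became 27 and 111 with DESeq2 and 15 and 17 without both libraries, 1 was called higher with no filter, 0 lower in a fit of the compared groups only, and 1 lower with counts divided by 4; leaving out 1 library gave 0 to 24 higher and 0 to 308 lower, the most without Control replicate 1. In CFZ_EA over CFZ, 2 higher and 0 lower became 38 and 17 with DESeq2, 1 higher with counts divided by 4, and 1 lower both in the fit of the compared groups and without both libraries, with 0 to 4 higher and 0 to 1 lower when 1 library was left out. In CFZ_EA over Control, 0 and 0 became 26 and 26 with DESeq2 and 1 higher without both libraries, with 0 to 20 higher and 0 to 211 lower when 1 library was left out.

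With 1 library left out the members' median lay between 0.024 and 0.14 in CFZ over Control and between -0.15 and -0.0043 in CFZ_EA over CFZ. In CFZ_EA over Control the median was -0.041 with library totals only and -0.035 with limma on log2(FPKM + 0.1), and the number above 0 was 13 with totals only and 14 with either limma setting. Among named members 36 values changed sign over the alternatives, while 492 kept it. In CFZ over Control with totals only, limma with 1 and limma with 0.1 added, Ddi2 was -0.040, -0.021 and -0.030 and Pomp -0.053, -0.042 and -0.046. With no filter Psma4 was 0.0040 and Psmd9 0.026, and without both libraries Ddi2 was -0.045, Pomp -0.080 and Psmd9 0.050. With 1 library left out, Ddi2 ran from -0.071 to 0.11, Nfe2l1 from -0.023 to 0.27, Pomp from -0.086 to 0.11, Psma4 from -0.19 to 0.11, Psmd3 from -0.13 to 0.0038 and Psmd9 from -0.097 to 0.050. In CFZ_EA over CFZ, Pomp was 0.069 without both libraries and ran from -0.15 to 0.066 with 1 left out, and Psmb5 from -0.21 to 0.039. In CFZ_EA over Control with totals only, limma with 1 and limma with 0.1 added, Psmb5 was -0.032, -0.026 and -0.026 and Psmb6 -0.062, -0.056 and -0.057; Psmb6 was -0.074 without both libraries. With 1 left out, Pomp ran from -0.14 to 0.075, Psmb6 from -0.050 to 0.074 and Psmb7 from -0.017 to 0.21.

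The labels give same-numbered libraries no link beyond the number, and whether they share a batch is not stated. The correlations of their deviations were -0.058 in CFZ and Control, 0.098 in CFZ_EA and CFZ, and -0.018 in CFZ_EA and Control. Such values cannot show whether a batch was shared. With the replicate number as a block the members' medians were 0.10, -0.078 and 0.030, and 32, 11 and 22 were above 0; no member's call changed. With 2 libraries a group, differences within the 0.30 reached by the median interval on the log2 scale could not be resolved. Where a group was reduced to 1 library, that library was assumed to vary like the other groups.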
